A study of Mus musculus with 12 samples.

Results

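Mouse fibroblasts that had received medium of microRNA-overexpressing adipocytes (OE_CM) were compared with fibroblasts that had received TGF-beta1 with medium of vector adipocytes (TGF_VEC_CM). The members are the 3 libraries titled OE_CM and the 3 titled TGF_VEC_CM, which are 6 of the 12 libraries of the study, and the 14400 of 24619 genes kept by a filter on low counts. The comparison asks where the first medium left the cells in a state like that reached with TGF-beta1, and where both states part. In the study, cells labelled primary mouse cardiac fibroblasts were starved for 12 h and then kept for 24 h in conditioned medium, which is medium that had been on other cells, here adipocytes infected with lentivirus. OE_CM cells received medium of adipocytes carrying a lentivirus that overexpresses the human microRNA miR-548ay, with no TGF-beta1 named in their labels. TGF_VEC_CM cells received TGF-beta1 and medium of adipocytes carrying the vector lentivirus. The 3 libraries of VEC_CM received the vector medium alone and serve below as the level from which both states are read. All groups thus share starvation, adipocyte medium and a lentiviral infection of the adipocytes. Since OE_CM replicates 2 and 3 carry miR-549ay and miR-550ay in their treatment labels, a series that counts upward with the replicate number, the titles decided the groups. The adipocytes were not analysed here, so the microRNA was not checked in them. OE_CM belongs to the first part of the study and TGF_VEC_CM to the second, and a difference between the parts and a difference between the media cannot be told apart. If VEC_CM belongs with OE_CM to the first part, TGF_VEC_CM against VEC_CM crosses the parts too, while OE_CM against VEC_CM does not. A place near VEC_CM, far from it or on its other side can then hold a difference between the parts. Whether replicates were separate cultures is not stated in the labels, so a p-value here sets a difference against library-to-library spread alone, some or all of which can be technical.

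TGF-beta is held in the matrix in latent form and, once freed, binds a pair of receptor kinases that phosphorylate Smad2 and Smad3, which enter the nucleus with Smad4. In fibroblasts the pathway raises genes of matrix and of its own inhibitors, such as Smad7 and Skil, and in the heart it is known for turning resting fibroblasts into matrix-depositing myofibroblasts. Bone morphogenetic proteins, a related branch, signal through Smad1 and Smad5 and raise the Id genes.

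The label of the cells was checked against markers. Of 14 markers of cardiac fibroblasts, 12 were in the table, which lacked Tcf21 and Hand2, and 8 passed the filter. Those 8 were the collagen genes Col1a1, Col1a2 and Col3a1, the receptor genes Pdgfra and Ddr2, the transcription factor gene Gata4, Thy1 and Postn. Dcn, which encodes the abundant fibroblast proteoglycan decorin, had only 3 to 6 counts in an OE_CM library and 3 to 9 in a TGF_VEC_CM library, Lum had at most 1 count, Tbx5 at most 1, and Tbx20 none in either group. Acta2 (alpha smooth muscle actin, the usual myofibroblast marker) was at 0.423, 0.568 and 0.501 CPM in OE_CM and at 0.450, 0.271 and 0.407 CPM in TGF_VEC_CM, where CPM is the count of a gene per 1e6 counts of its library, scaled by library factors. Its groups overlapped and did not differ (log2 difference 0.40 ± 0.445 SE, edgeR adjusted p = 0.44). Ccn2, Tagln, Cnn1 and Cthrc1, further genes used to mark activated fibroblasts, also stayed below the filter, with at most 9 counts in any library of OE_CM or TGF_VEC_CM. Hoxc10, a HOX gene of the posterior body axis, was at 106, 106 and 98.1 CPM in OE_CM and at 85.1, 83.8 and 82.5 CPM in TGF_VEC_CM. The cells therefore carried transcripts of fibrillar collagens and of other listed markers, Gata4, Ddr2 and Thy1 among them. In both groups they had few or no counts of Dcn, Lum, Tbx5 and Tbx20, so the markers of the labelled cell type were mixed.

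Markers of other cell types were summed per library. The adipocyte list summed to 101 to 106 CPM in OE_CM and 191 to 205 CPM in TGF_VEC_CM, with Lep at 0 in both groups, the endothelial list to 1.21 to 1.38 and 1.52 to 2.33 CPM with Emcn at 0, the leukocyte list to 25.1 to 43.8 and 38.3 to 41.9 CPM, the epicardial list to 60.2 to 65.5 and 99.2 to 103 CPM, and the smooth muscle and pericyte list to 1037 to 1051 and 967 to 984 CPM. The cardiomyocyte list summed to 165 to 169 and 108 to 119 CPM, nearly all of it Tnnt2. Library totals lay between 33379207 and 37226153 counts. OE_CM replicate 1 stood apart from replicates 2 and 3 on the fourth principal component (score 27.8 against -14.6 and -12.0, 3.81% of the variance). In bulk RNA, fewer cells of a type and less RNA per cell cannot be told apart.

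Expression differed between OE_CM and TGF_VEC_CM at 9293 of 14400 genes (64.5%; edgeR quasi-likelihood test, adjusted p below 0.05), of which 4907 (34.1%) were higher and 4386 (30.5%) lower in OE_CM. Most differences were small, with a median absolute log2 difference of 0.373 among the genes that passed. Those of at least 2-fold numbered 1702 (11.8%) and were mostly one-sided, with 176 genes (1.22%) higher and 1526 (10.6%) lower in OE_CM. Leaving out OE_CM replicate 1 gave 4493 higher, 4345 lower, 167 at least 2-fold higher and 1594 at least 2-fold lower. At the other end, the 95% interval of the difference lay inside 1.2-fold either way for 3725 genes (25.9%), the sense in which genes are called alike below. The libraries of both groups did not overlap at 9750 genes (67.7%).

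The split between higher and lower genes depended on the scaling of libraries. With TMM factors, the main scaling, 52.8% of the genes that passed were higher in OE_CM, and with DESeq2 size factors 51.1%. With upper-quartile factors the share was 35.9%, with library size alone 34.8%, and with TMM factors taken only from genes of at least 16 CPM, a choice made after seeing the data, 39.1%. These 3 scalings moved the median log2 difference of all genes by -0.112, -0.12 and -0.092 from its main value of 0.00272, so a log2 difference under about that size has no firm sign.

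The 2-fold falls lay mostly among weakly expressed genes. Of 2406 genes with a mean under 1 CPM over all libraries 831 (34.5%) were at least 2-fold lower in OE_CM and 70 (2.91%) at least 2-fold higher, with a median log2 difference of -0.673. Of 8296 genes at 16 CPM or more 113 (1.4%) were at least 2-fold lower and 47 (0.57%) higher, with a median of 0.106. The number of genes with any count was 18212 to 18398 in OE_CM libraries and 19810 to 19972 in TGF_VEC_CM libraries, against 18671 to 18815 in VEC_CM. A weak gene could pass the filter through the libraries of 1 group alone, so a gene high only in TGF_VEC_CM could enter the class under 1 CPM. How far this shaped the falls was not tested. Genes at least 2-fold lower numbered 920 with a filter of 1 CPM in 3 libraries and 1953 with no filter. Under 1 CPM, 41.08% of protein-coding genes and 28.38% of long noncoding genes were at least 2-fold lower in OE_CM. Replication-dependent histone genes, whose messages lack a poly(A) tail and serve here as a sign of RNA quality and selection, moved the same way. They summed to 3.51 to 3.72 CPM in OE_CM, 7.42 to 7.95 CPM in TGF_VEC_CM and 6.06 to 6.72 CPM in VEC_CM, with H3c1 at 0 in OE_CM and TGF_VEC_CM and both of the 2 that passed the filter lower in OE_CM. Their part in the weak-gene falls was not tested.

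**Figure D1:**
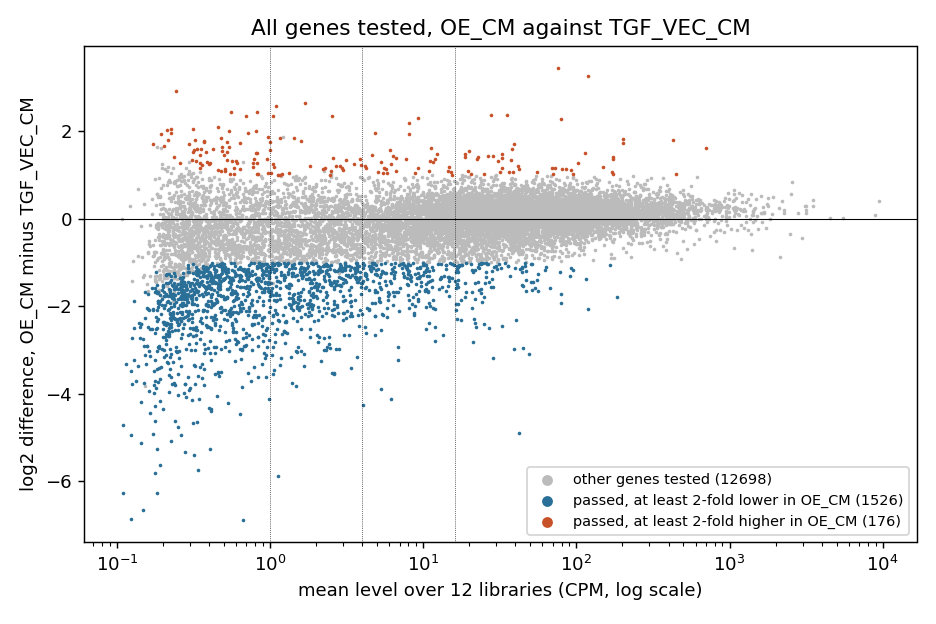
Each point is 1 of 14400 genes, with its mean over 12 libraries on the x axis (CPM, log scale) and its log2 difference, OE_CM minus TGF_VEC_CM, on the y axis. Blue and orange points passed the test at 2-fold or more, dotted lines mark 1, 4 and 16 CPM, and the 1526 blue points crowd at the weakly expressed end while 176 are orange.

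Several genes reached the same level by either route. Fstl3, which encodes a secreted binder of activins (chromosome 10, 79777274 to 79782630, GRCm38.p6, NCBI gene 83554), was at 54.1, 45.9 and 47.9 CPM in VEC_CM, at 230, 220 and 220 CPM in OE_CM and at 243, 225 and 235 CPM in TGF_VEC_CM. Both groups stood far above VEC_CM and overlapped each other (log2 -0.07, 95% interval -0.15 to 0.01), but under the 3 scalings with a lower median it passed the test as lower in OE_CM (log2 -0.16 to -0.19). Fstl3 also passed as lower with the replicate block (log2 -0.07, edgeR adjusted p = 0.0251), with the 6 libraries alone (0.00243), with the 1 CPM filter (0.0365), without OE_CM replicate 1 (0.0337) and without TGF_VEC_CM replicate 2 (0.0205).

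Falls were shared in size too. Col6a1, a chain of the beaded filament collagen VI (chromosome 10, 76708792 to 76726044, NCBI gene 12833), was at 841, 929 and 958 CPM in VEC_CM, at 297, 315 and 311 CPM in OE_CM and at 304, 320 and 331 CPM in TGF_VEC_CM. Its partner Col6a2 went from a VEC_CM mean of 505 ± 32.4 CPM (SD, n = 3) to 160 ± 4.29 in OE_CM and 150 ± 3.57 in TGF_VEC_CM. The growth arrest gene Gas1 went from 110 ± 8.47 to 29.2 ± 1.41 and 28.9 ± 0.43 CPM, and Casp4, which encodes an inflammatory caspase, from 64.0 ± 3.57 to 28.9 ± 0.36 and 28.6 ± 1.24 CPM. The other alike genes with the largest shared shifts were Hspb7 (5.46, 24.3 and 24.9 CPM on average in VEC_CM, OE_CM and TGF_VEC_CM), Zfp467 (42.9, 14.5 and 15.6), Dok4 (13.5, 29.8 and 28.9) and Relt (13.4, 28.1 and 28.2). These genes were picked by their intervals and shifts, so their likeness is a description, and it is a likeness within 1.2-fold: Col6a2 was slightly higher in OE_CM without overlap (log2 0.09 ± 0.033, edgeR adjusted p = 0.0131). That call was lost with upper-quartile factors (log2 -0.02), library size alone (-0.03) and TMM factors from genes of at least 16 CPM (0.002). It was also lost with the 1 CPM filter, with both limma fits, and without OE_CM replicate 2 or TGF_VEC_CM replicate 1 or 2. Among the alike genes, Col6a1, Fstl3, Hspb7 and Zfp467 passed the test as lower in OE_CM under at least 1 other scaling, with log2 differences between -0.14 and -0.23.

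Hr, which encodes the hairless corepressor (chromosome 14, 70554056 to 70573548, NCBI gene 15460), was at 6.53, 6.80 and 5.96 CPM in VEC_CM, at 61.1, 61.1 and 67.9 CPM in OE_CM and at 76.1, 73.1 and 74.7 CPM in TGF_VEC_CM. It stood above VEC_CM in both groups (log2 3.30 and 3.54) and was lower in OE_CM than in TGF_VEC_CM (log2 -0.24 ± 0.049, edgeR adjusted p = 2.21e-05), with no overlap. Pmepa1, a TGF-beta feedback gene, was at 0.155 ± 0.0155, 1.47 ± 0.625 and 1.44 ± 0.446 CPM in VEC_CM, OE_CM and TGF_VEC_CM, too low for its interval (-0.57 to 0.63) to show likeness.

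**Figure D2:**
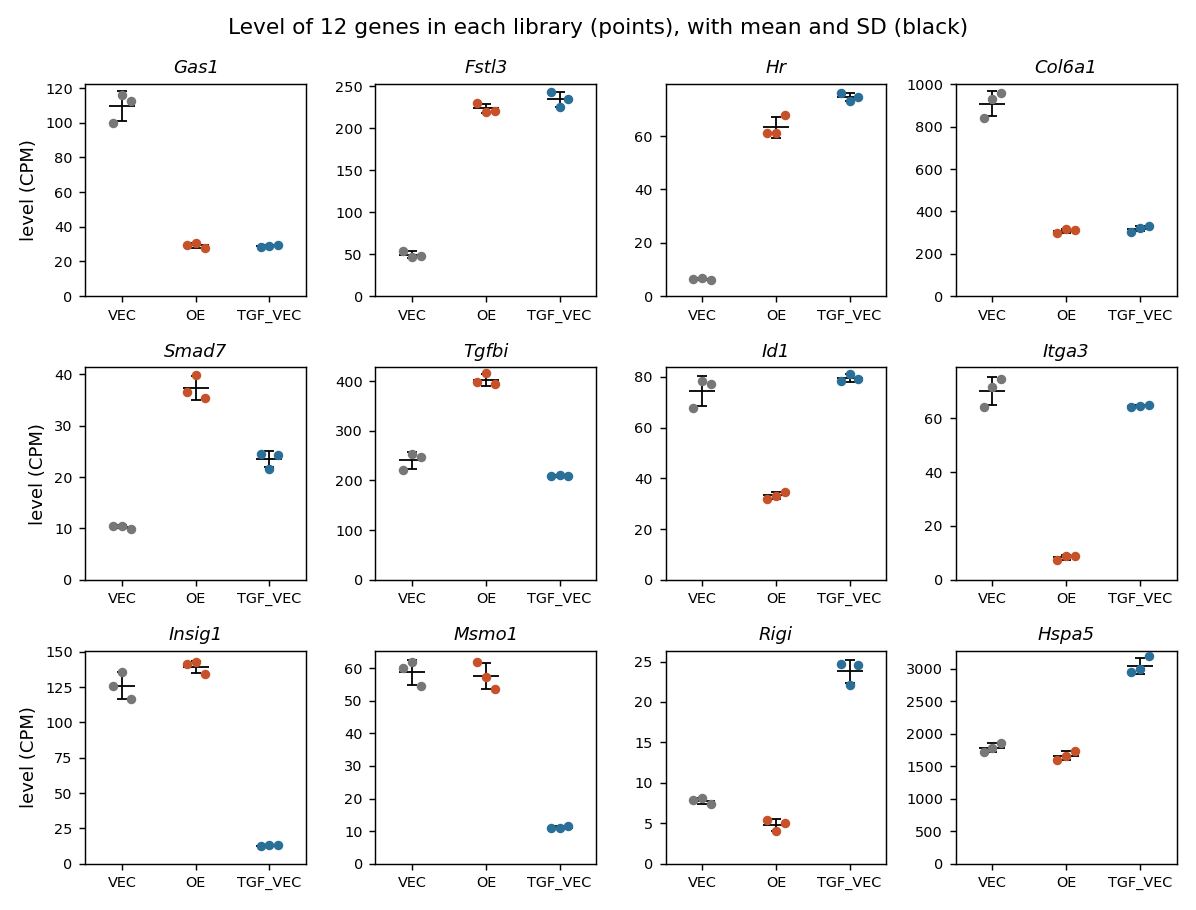
Each panel shows 1 gene, with its level in CPM on a linear y axis from 0 in the 3 libraries (points) of VEC_CM, OE_CM and TGF_VEC_CM, and the mean and SD in black. Gas1, Fstl3 and Col6a1 sit at overlapping levels in OE_CM and TGF_VEC_CM, Smad7 and Tgfbi are higher in OE_CM, Id1 and Itga3 are low in OE_CM only, Insig1 and Msmo1 are low in TGF_VEC_CM only, and Rigi and Hspa5 are high in TGF_VEC_CM only.

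Within the TGF-beta pathway, ligands and latent binding proteins did not move one way. Of 10 such genes tested 3 were higher and 4 lower in OE_CM, with a median log2 difference of 0.08 that turned to between -0.01 and -0.04 under the 3 other scalings and to -0.26 without OE_CM replicate 1. Tgfb1, the ligand gene itself, was at 52.8, 58.9 and 52.4 CPM in OE_CM and at 45.7, 45.8 and 44.9 CPM in TGF_VEC_CM (log2 0.27 ± 0.047, edgeR adjusted p = 1.53e-06), with no overlap. Lower in OE_CM were the latent binding protein genes Ltbp1 (log2 -0.42 ± 0.041) and Ltbp3 (-0.30 ± 0.025) and the stress cytokine gene Gdf15 (-1.46 ± 0.084), which had means of 14.9, 11.1 and 30.6 CPM in VEC_CM, OE_CM and TGF_VEC_CM. Of 17 receptors and Smads 6 were higher and 8 lower (median -0.16). Smad3, a transducer of the pathway, was lower in OE_CM, at 28.0 ± 1.68 against 46.3 ± 1.66 CPM (VEC_CM 44.3 ± 0.625), and Tgfbr3, a coreceptor, differed by -0.51.

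Of 13 inhibitors of the pathway tested 7 were higher in OE_CM than in TGF_VEC_CM, 1 was lower and 5 did not pass, with a median of 0.32 against 0.00272 over all genes, and the same median was 0.20 to 0.31 under other scalings. Smad7, which blocks the type I receptor, was at 36.7, 39.9 and 35.4 CPM in OE_CM, at 24.4, 21.7 and 24.4 CPM in TGF_VEC_CM and at 10.5, 10.5 and 9.99 CPM in VEC_CM. The 3 groups did not overlap, and OE_CM was 1.59-fold above TGF_VEC_CM (log2 0.67 ± 0.064, edgeR adjusted p = 2.83e-14). Skil, a corepressor of Smads, had means of 161 ± 1.56 CPM in OE_CM, 114 ± 4 in TGF_VEC_CM and 53.3 ± 2.18 in VEC_CM. Ldlrad4, a membrane inhibitor that holds Smads back, had means of 98.8 ± 1.28, 62.5 ± 1.19 and 34.7 ± 0.661 CPM in the same order. All 3 stood above VEC_CM in both groups and highest in OE_CM.

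Of 17 TGF-beta target genes tested 9 were higher and 5 lower in OE_CM, with a median of 0.42 (0.30 to 0.41 under other scalings), and 11 of the 28 listed stayed below the filter. Against VEC_CM, 11 were higher and 2 lower in OE_CM (all genes 28.4% higher and 25.7% lower), and 9 were higher and 4 lower in TGF_VEC_CM (all genes 28.9% and 29.4%). Both comparisons use the same VEC_CM libraries. Ccn4, a secreted matricellular protein gene, was at 414, 402 and 406 CPM in OE_CM, at 265, 250 and 257 CPM in TGF_VEC_CM and at 149, 152 and 154 CPM in VEC_CM, without overlap (log2 0.66 ± 0.026). Runx1, a transcription factor gene, had means of 61.2 ± 2.59, 35.5 ± 1.5 and 24.1 ± 0.884 CPM. Tgfbi, which encodes a matrix protein named for its induction by TGF-beta, was at 397, 417 and 393 CPM in OE_CM but at 208, 212 and 209 CPM in TGF_VEC_CM, below the 221, 254 and 247 CPM of VEC_CM (TGF_VEC_CM minus VEC_CM log2 -0.20 ± 0.047, edgeR adjusted p = 0.00283). Tgfbi was singled out after its values were seen. Bhlhe40, a repressor in stress and clock control, had means of 186 ± 9.93 CPM in OE_CM and 95.6 ± 1.18 in TGF_VEC_CM around 127 ± 1.45 in VEC_CM, while Angptl4, a lipase inhibitor gene, was lower in OE_CM (211 ± 8.96 against 342 ± 7.42 CPM).

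The Id genes parted. Of 7 genes of the BMP and Id list tested 6 were lower and 1 higher in OE_CM, 5 of them at least 2-fold lower, with a median of -1.14 (-0.627 with limma on log2(FPKM + 1), whose pseudocount shrinks differences of low genes). Id1, an inhibitor of differentiation and a target of BMP signalling (chromosome 2, 152736251 to 152737410, NCBI gene 15901), was at 32.0, 33.2 and 34.6 CPM in OE_CM, at 78.2, 81.2 and 79.2 CPM in TGF_VEC_CM and at 67.5, 78.5 and 77.1 CPM in VEC_CM. OE_CM stood below both other groups, which did not differ (log2 0.10, edgeR adjusted p = 0.121). Id2 had means of 10.3 ± 0.68 CPM in OE_CM, 21.4 ± 1.26 in TGF_VEC_CM and 29.7 ± 0.763 in VEC_CM, and Id3 of 12.6 ± 0.737, 31.7 ± 1.38 and 38.8 ± 2.28 CPM. For Id2 and Id3 both groups stood below VEC_CM, and OE_CM stood lower. Bmp1, a procollagen protease grouped here by name only, was the higher member (log2 0.43).

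The main fibrillar collagens differed little. The wider list of fibrillar collagen and interstitial matrix was no more alike than genes in general. Of its 20 genes tested 6 were higher and 11 lower in OE_CM (median -0.15), so 85% passed against 64.5% of all genes. Intervals of 6 lay inside 1.2-fold, near the share of 25.9% over all genes. Col1a1 was at 1650, 1746 and 1673 CPM in OE_CM, at 1757, 1800 and 1801 CPM in TGF_VEC_CM and at 1294, 1325 and 1289 CPM in VEC_CM (OE_CM minus TGF_VEC_CM log2 -0.08 ± 0.022, edgeR adjusted p = 0.00127). Both groups lay above VEC_CM within a narrow band. Col1a2 did not differ (log2 0.02, interval -0.02 to 0.06) with TMM factors and passed as lower by -0.08 to -0.10 under the 3 other scalings, and Col3a1 differed by -0.10 ± 0.039, a call lost without OE_CM replicate 1 or 2 or without TGF_VEC_CM replicate 2 (adjusted p = 0.07 to 0.12). Fn1, fibronectin, was slightly higher in OE_CM (2432 ± 17.8 against 2131 ± 36.3 CPM, log2 0.19 ± 0.021), and Postn, periostin, had 1.65 ± 0.249 against 2.32 ± 0.403 CPM (log2 -0.49 ± 0.231, edgeR adjusted p = 0.0575).

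Proteoglycans and accessory matrix genes follow, named because they had low p-values or large differences. Dpt, which encodes dermatopontin, a binder of decorin and collagen, was at 51.4, 59.0 and 54.7 CPM in OE_CM, at 10.1, 11.4 and 10.5 CPM in TGF_VEC_CM and at 8.96, 10.9 and 9.36 CPM in VEC_CM, so it stood high in OE_CM only among these 3 groups (log2 2.37 ± 0.069). Vcan, the large proteoglycan versican, had means of 295 ± 8.39 CPM in OE_CM and 151 ± 3.49 in TGF_VEC_CM around 263 ± 18.3 in VEC_CM, and Bgn, biglycan, of 1464 ± 34.0, 981 ± 8.98 and 1047 ± 50.3 CPM. Prelp, a proteoglycan that anchors basement membranes, was at 5.31, 7.12 and 4.38 CPM in OE_CM against 29.6, 31.1 and 28.9 CPM in TGF_VEC_CM (log2 -2.41 ± 0.095), with 42.2 ± 2.83 CPM in VEC_CM. Tnxb, tenascin X (chromosome 17, 34660453 to 34719815, NCBI gene 81877), was at 10.6, 10.1 and 9.73 CPM in OE_CM, at 86.0, 86.9 and 86.2 CPM in TGF_VEC_CM and at 44.4, 45.2 and 47.3 CPM in VEC_CM. The states lay on opposite sides of VEC_CM for Tnxb (direct log2 -3.09 ± 0.055, edgeR adjusted p = 1.63e-51).

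Of 16 genes of collagen VI and basement membrane 2 were higher and 9 lower in OE_CM (median -0.35, and -0.196 with limma on log2(FPKM + 1)), and 1 and 14 with upper-quartile factors or library size alone. Lama5, a laminin chain, had means of 363 ± 2.95 CPM in OE_CM and 684 ± 16.9 in TGF_VEC_CM, beside 348 ± 12.8 in VEC_CM. Hspg2, perlecan, had 691 ± 8.50 against 979 ± 15.6 CPM around 811 ± 24.3. Col4a2 differed by -0.71 ± 0.025, while Col6a3 was the larger of the members higher in OE_CM (log2 0.45). Of 21 genes that process and crosslink collagen 7 were higher and 11 lower (median -0.17). The lysyl oxidase gene Loxl2 had means of 98.2 ± 3.55 CPM in OE_CM and 173 ± 1.57 in TGF_VEC_CM over 47.6 ± 3.81 in VEC_CM, so both stood above VEC_CM and OE_CM between the others. Of 18 matrix proteases and inhibitors 5 were higher and 11 lower (median -0.58, and -0.206 with limma on log2(FPKM + 1)), 6 of them at least 2-fold lower. Plat, tissue plasminogen activator, was at 7.68, 7.09 and 6.95 CPM in OE_CM and at 26.8, 27.6 and 27.7 CPM in TGF_VEC_CM (log2 -1.92 ± 0.098), while Mmp14, a membrane-bound collagenase, was higher in OE_CM (487 ± 7.87 against 256 ± 3.01 CPM), as was the protease inhibitor gene Timp1 (158 ± 4.39 against 102 ± 1.37 CPM).

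Integrins are the receptors that tie cells to matrix. Itga3, a laminin-binding chain (chromosome 11, 95044475 to 95076844, NCBI gene 16400), was at 7.42, 8.88 and 8.73 CPM in OE_CM, at 64.3, 64.5 and 64.7 CPM in TGF_VEC_CM and at 64.1, 71.5 and 74.5 CPM in VEC_CM. OE_CM was 7.74-fold below TGF_VEC_CM without overlap (log2 -2.95 ± 0.065, edgeR adjusted p = 1.92e-45). Itga7, another laminin-binding chain, stood high in TGF_VEC_CM (38.9 ± 1.87 CPM, against 12.1 ± 0.49 in OE_CM and 10.6 ± 0.70 in VEC_CM), and Itga6, a chain of laminin receptors too, was lower in OE_CM (log2 -0.92). The fibronectin receptor chain Itga5 was higher in OE_CM (455 ± 9.94 against 264 ± 7.2 CPM, over 173 ± 4.22 in VEC_CM). Of 11 integrins tested 6 were higher and 3 lower, and the median of 0.08 turned negative (-0.01 to -0.04) under the 3 other scalings. Contractile and stress fibre genes were mixed, with 9 of 22 higher and 6 lower at a median of 0.07 (8 higher and 10 lower with library size alone, median -0.05). The filamin gene Flna was higher in OE_CM (log2 0.59 ± 0.022) and the tropomyosin gene Tpm2 lower (log2 -0.68 ± 0.037). Tnnt2, a troponin gene of striated muscle, had means of 163 ± 2.23 CPM in OE_CM, 109 ± 5.85 in TGF_VEC_CM and 71.9 ± 3.33 in VEC_CM.

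Genes of sterol synthesis and uptake were mostly higher in OE_CM than in TGF_VEC_CM, where all of those tested lay below VEC_CM. The genes of this list make cholesterol from acetyl-CoA or take it up, under the transcription factor encoded by Srebf2, which Insig1 holds in the endoplasmic reticulum when sterol is plentiful. Of 19 genes tested 18 were higher and 0 lower in OE_CM than in TGF_VEC_CM, 13 of them at least 2-fold, with a median of 1.37 that stayed between 1.08 and 1.39 under every alternative run. The counts were also 18 and 0 without OE_CM replicate 1. Against VEC_CM all 19 were lower in TGF_VEC_CM (median -1.54), and in OE_CM 8 were lower and 2 higher (median -0.07). Insig1 (chromosome 5, 28071412 to 28078662, NCBI gene 231070) was at 141, 143 and 134 CPM in OE_CM, at 12.2, 13.4 and 12.9 CPM in TGF_VEC_CM and at 125, 136 and 117 CPM in VEC_CM, the largest rise by the naming rule (10.8-fold, log2 3.44 ± 0.052, edgeR adjusted p = 7.52e-51). OE_CM overlapped VEC_CM for Insig1, and TGF_VEC_CM lay far below.

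The enzymes followed in the same order of groups. Msmo1, a sterol demethylase, had means of 57.6 ± 4.07 CPM in OE_CM, 11.1 ± 0.438 in TGF_VEC_CM and 58.8 ± 3.81 in VEC_CM. Fdps, which makes farnesyl pyrophosphate, had 129 ± 3.67, 26.5 ± 1.26 and 126 ± 6.23 CPM, and Cyp51, the lanosterol demethylase, 678 ± 19.8, 193 ± 2.19 and 643 ± 28.2 CPM. Srebf2 itself had 291 ± 11.4, 87.3 ± 1.53 and 301 ± 3.84 CPM (log2 1.74 ± 0.030). The member that did not differ was Dhcr7, which makes the last step to cholesterol, at 14.8 ± 0.627 and 14.8 ± 1.11 CPM, below the 24.4 ± 0.579 CPM of VEC_CM in both groups. Of the 19 genes 14 had a promoter window in the RefSeq table of GRCm38.p6. A sterol element, TCACNCCAC or GTGGNGTGA on the other strand, was searched in the 250 bases before the start and found at 1 of the 14, Hmgcs1, the hydroxymethylglutaryl-CoA synthase gene (log2 1.52), and at 1.23% of all tested genes with a window. It is shown with the match in capitals, 5′ to 3′ on the gene's strand. A match is a description and no test of binding.
Hmgcs1, chr13:119690174-119690262, plus strand: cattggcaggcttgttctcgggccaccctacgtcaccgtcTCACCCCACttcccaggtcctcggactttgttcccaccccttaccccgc

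Of 11 genes of sterol efflux 4 were higher and 4 lower in OE_CM (median -0.01), but 1 and 5 with upper-quartile factors or library size alone (medians -0.118 and -0.126). Abca1, the main cholesterol exporter (chromosome 4, 53030789 to 53159988, NCBI gene 11303), was at 3.98, 3.23 and 3.79 CPM in OE_CM, at 21.5, 25.8 and 22.2 CPM in TGF_VEC_CM and at 9.50, 12.3 and 12.8 CPM in VEC_CM. It lay below VEC_CM in OE_CM and above it in TGF_VEC_CM (direct log2 -2.66 ± 0.106, edgeR adjusted p = 8.26e-30). Mylip, a ubiquitin ligase gene, differed by -0.65 ± 0.057. Of 16 fatty acid synthesis genes 11 were higher and 4 lower (median 0.41). Fasn, fatty acid synthase, had means of 844 ± 29.5 CPM in OE_CM and 435 ± 4.48 in TGF_VEC_CM beside 748 ± 11.2 in VEC_CM, and Acly, which supplies acetyl-CoA, of 358 ± 12.5, 206 ± 4.52 and 349 ± 9.32 CPM, while Acacb, the acetyl-CoA carboxylase tied to oxidation, was lower in OE_CM (9.60 ± 0.841 against 31.4 ± 1.24 CPM). Of 20 fatty acid oxidation genes 13 were lower and 1 higher (median -0.27), led by the thiolase gene Acaa2 (23.3 ± 1.71 against 51.5 ± 2.31 CPM).

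Of 20 PPAR targets and fatty acid uptake genes 8 were higher and 10 lower in OE_CM (median -0.14). Pparg, which encodes the nuclear receptor that drives fat storage, was at 128, 122 and 124 CPM in OE_CM, at 88.7, 93.8 and 91.2 CPM in TGF_VEC_CM and at 127, 121 and 124 CPM in VEC_CM (OE_CM minus TGF_VEC_CM log2 0.45 ± 0.034, edgeR adjusted p = 1.16e-18). Its targets Lpl, lipoprotein lipase, and Fabp4, a fatty acid carrier, were lower in OE_CM than in TGF_VEC_CM, with means of 301 ± 2.51 against 428 ± 9.22 CPM and of 85.7 ± 2.35 against 179 ± 5.74 CPM, and below VEC_CM (682 ± 21.3 and 260 ± 7.36 CPM) in both. Pparg thus differed from Lpl and Fabp4 in direction between OE_CM and TGF_VEC_CM. The list as a whole was split, and its member Acsl3 was higher in OE_CM (log2 1.35 ± 0.054), as Pparg was. Fabp4 also counts among the adipocyte markers, whose summed levels are given above, and the part of adipocyte RNA in these values was not tested. Of the 9 adipocyte markers tested 4 were lower in OE_CM, 3 of them at least 2-fold (Fabp4, Adrb3 and Cidea), 1 was higher (Cidec), and the other 4, among them Plin1 and Adipoq (log2 -0.01 and -0.39), did not pass.

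**Figure D3:**
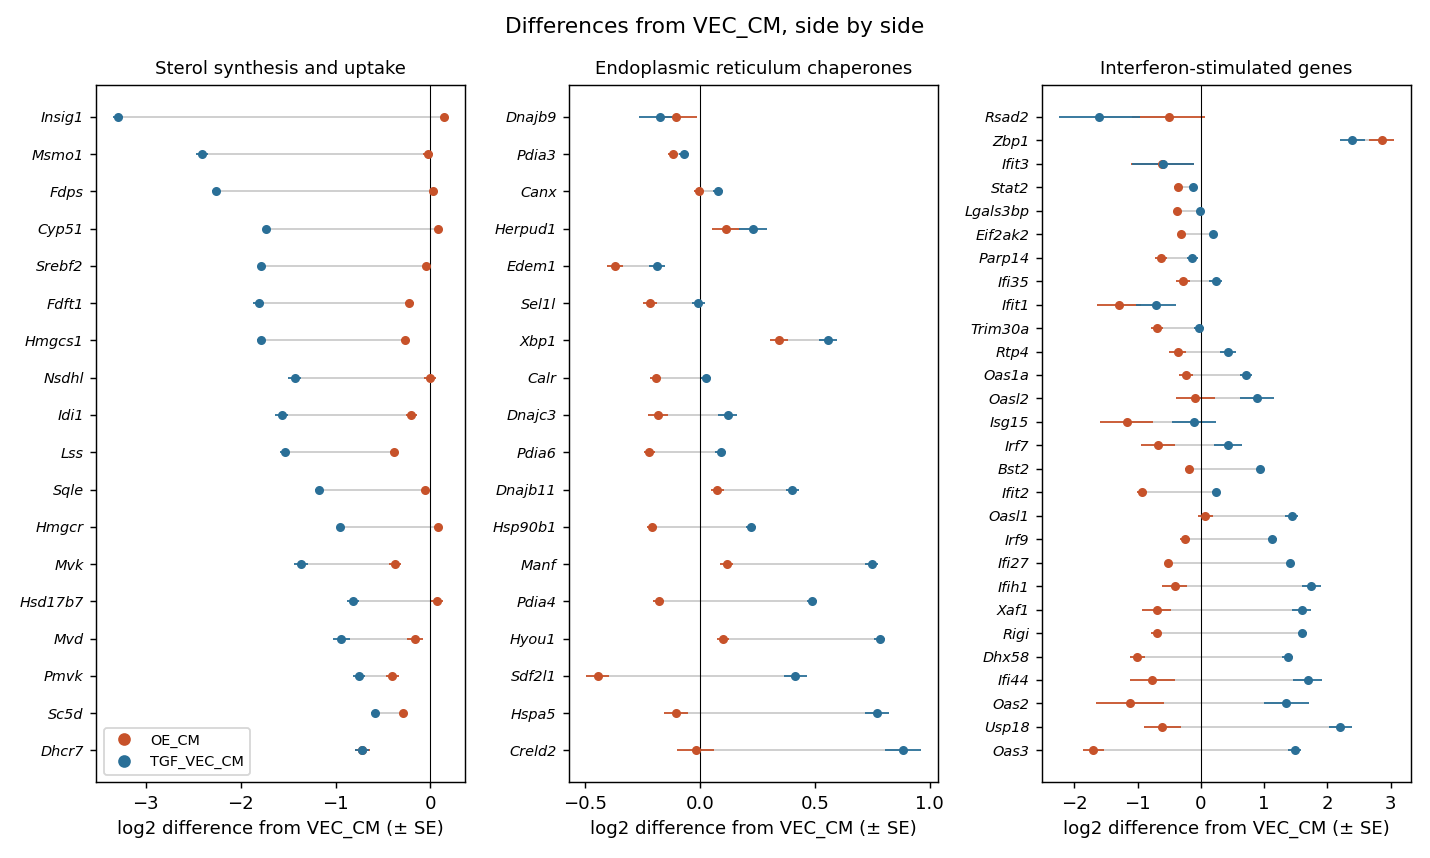
For genes of 3 lists the x axis gives the log2 difference from VEC_CM with its SE, orange for OE_CM and blue for TGF_VEC_CM, ordered by the direct difference between both groups. Sterol genes lie left of 0 in TGF_VEC_CM, and in OE_CM most lie nearer to 0, though 8 of the 19 tested were lower than in VEC_CM and Dhcr7 lies as far left in both, most chaperone genes lie right of 0 in TGF_VEC_CM, and most interferon genes lie left in OE_CM and right in TGF_VEC_CM. Both series of points share the VEC_CM libraries.

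Chaperones of the endoplasmic reticulum, which fold secreted proteins, stood higher in TGF_VEC_CM. Of 18 genes tested 0 were higher and 16 lower in OE_CM, with a median of -0.31 (-0.27 to -0.43 under all alternatives run), and 0 and 16 also without OE_CM replicate 1. Against VEC_CM 13 were higher and 2 lower in TGF_VEC_CM, and 4 higher and 9 lower in OE_CM. Hspa5, the BiP chaperone, was at 1591, 1660 and 1740 CPM in OE_CM, at 2955, 3003 and 3190 CPM in TGF_VEC_CM and at 1722, 1786 and 1854 CPM in VEC_CM (log2 -0.87 ± 0.052, edgeR adjusted p = 3.6e-07). Its OE_CM libraries overlapped those of VEC_CM. Pdia4, a disulphide isomerase, had means of 874 ± 5.20 CPM in OE_CM and 1389 ± 41.0 in TGF_VEC_CM, Hyou1, a nucleotide exchange factor, of 449 ± 4.66 and 721 ± 26.2 CPM, and Manf, a secreted stress factor, of 321 ± 5.67 and 497 ± 16 CPM. Targets of the stress factor ATF4 and genes of amino acid supply, 1 list, went the other way. Of 23 genes 17 were higher and 3 lower in OE_CM (median 0.26, and 13 higher and 6 lower with library size alone). Against VEC_CM 16 were higher and 4 lower in OE_CM, and 8 were higher and 8 lower in TGF_VEC_CM. Atf4 itself had 639 ± 10.7 against 405 ± 16 CPM, and Atf5 198 ± 2.65 against 74.1 ± 3.69 CPM, with 255 ± 9.12 CPM in VEC_CM.

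The windows before the chaperone genes were searched for 1 motif. The endoplasmic reticulum stress element, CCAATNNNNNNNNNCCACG or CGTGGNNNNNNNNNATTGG on the other strand, lay within 250 bases before the start of 7 of 16 chaperone genes with a window (43.75%), against 18 of 11157 tested genes (0.16%) and 0.13% of all genes of the RefSeq table, so most of the chaperone genes had no match. The 7 were Hsp90b1, Pdia6, Calr, Dnajc3, Hspa5, Creld2 and Canx, with log2 differences between -0.90 (Creld2) and -0.09 (Canx). Windows of 4 of them are shown, on the gene's strand, 5′ to 3′ and on GRCm38.p6, with the matches in capitals, to let the fixed ends of the element be compared around the spacer. Hsp90b1 carries the element in both orientations.
Hspa5, chr2:34771985-34772083, plus strand: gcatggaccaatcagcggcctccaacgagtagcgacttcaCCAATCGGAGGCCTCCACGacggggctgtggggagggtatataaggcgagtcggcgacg
Creld2, chr15:88819480-88819578, plus strand: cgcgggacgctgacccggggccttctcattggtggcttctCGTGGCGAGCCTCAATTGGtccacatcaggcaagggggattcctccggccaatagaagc
Pdia6, chr12:17266451-17266549, plus strand: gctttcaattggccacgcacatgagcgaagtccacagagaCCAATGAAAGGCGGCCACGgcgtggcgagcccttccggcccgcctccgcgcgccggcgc
Hsp90b1, chr10:86705493-86705694, minus strand: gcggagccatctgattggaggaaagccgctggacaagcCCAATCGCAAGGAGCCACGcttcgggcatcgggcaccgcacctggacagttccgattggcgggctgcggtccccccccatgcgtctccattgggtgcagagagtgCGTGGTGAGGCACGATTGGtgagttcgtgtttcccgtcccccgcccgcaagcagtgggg

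Interferon-stimulated genes encode antiviral sensors and effectors. Of 29 genes tested 1 was higher and 24 lower in OE_CM than in TGF_VEC_CM, 15 of them at least 2-fold lower, with a median of -1.06 (-0.57 to -1.41 over all alternatives run). Without OE_CM replicate 1 the counts were 1 and 25. Against VEC_CM 18 were lower and 1 higher in OE_CM (median -0.51), and 1 was lower and 19 higher in TGF_VEC_CM (median 0.71). Oas3, which makes the activator of an antiviral ribonuclease (chromosome 5, 120753098 to 120777684, NCBI gene 246727), was at 1.07, 0.957 and 0.970 CPM in OE_CM, at 9.30, 10.1 and 7.87 CPM in TGF_VEC_CM and at 3.21, 2.98 and 3.58 CPM in VEC_CM. The 3 groups did not overlap, and OE_CM was 9.06-fold below TGF_VEC_CM (log2 -3.18 ± 0.130, edgeR adjusted p = 1.4e-31). Rigi, a sensor of viral RNA, was at 5.36, 4.01 and 5.01 CPM in OE_CM, at 24.6, 22.1 and 24.6 CPM in TGF_VEC_CM and at 7.87, 8.14 and 7.39 CPM in VEC_CM (log2 -2.31 ± 0.078). Dhx58, a regulator of the same sensors, had means of 2.21 ± 0.227, 11.5 ± 0.491 and 4.42 ± 0.202 CPM, and Ifi27 of 23.3 ± 2.00, 88.9 ± 4.16 and 33.3 ± 1.34 CPM in the same order. Both lay on opposite sides of VEC_CM in OE_CM and TGF_VEC_CM.

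Not all members parted. Zbp1, a sensor of nucleic acids, was at 12.3, 12.5 and 15.4 CPM in OE_CM and at 8.34, 10.6 and 10.2 CPM in TGF_VEC_CM over 1.23, 2.19 and 2.11 CPM in VEC_CM, and was the member higher in OE_CM (log2 0.46 ± 0.137, edgeR adjusted p = 0.0127). With library size alone that call was lost, and 0 members were higher. OE_CM replicate 1 stood apart for some weakly expressed members. Isg15, a ubiquitin-like modifier, was at 1.07, 0.209 and 0.219 CPM in OE_CM and at 1.04, 1.06 and 1.14 CPM in TGF_VEC_CM, and its log2 difference of -1.06 (edgeR adjusted p = 0.0448) was -2.33 without that library. Ifit1, an RNA-binding effector, was at 0.705, 0.0897 and 0.282 CPM against 0.365, 0.704 and 0.570 CPM and did not pass over all libraries (log2 -0.58) but passed without that one (log2 -1.58, edgeR adjusted p = 0.00145), while Rsad2, viperin, was at 3.58, 0.628 and 0.720 CPM in OE_CM. Apol9a, an apolipoprotein L gene outside the list (chromosome 15, 77403789 to 77411080, NCBI gene 223672), had the largest fall by the naming rule, at 0.564, 0.688 and 0.689 CPM in OE_CM, 19.3, 20 and 18.9 CPM in TGF_VEC_CM and 6.53, 5.44 and 5.14 CPM in VEC_CM (log2 -4.91 ± 0.116). Reads may be shared with its close copy Apol9b, which was also lower in OE_CM (log2 -2.99), so the level of either gene is uncertain. The summed leukocyte markers given above overlapped between OE_CM and TGF_VEC_CM over all libraries, with 1 of 12 markers higher and 2 lower in OE_CM. Without OE_CM replicate 1, 0 were higher and 5 lower (median -0.423), the direction of the interferon genes, and the part of leukocyte RNA in these values was not tested.

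The interferon-stimulated response element, TTTCNNTTTC or GAAANNGAAA on the other strand, lay within 250 bases before the start of 9 of 20 interferon genes with a window (45%), against 362 of 11157 tested genes (3.24%) and 3.46% of all genes of the RefSeq table. Of these 9, Oas3, Bst2, Oas1a, Trim30a, Stat2 and Isg15 were lower in OE_CM, and Rsad2, Ifit1 and Ifit3 did not pass the test (log2 1.10, -0.58 and -0.01). The motif was thus found both at members that passed the test and at members that did not. Windows of 3 genes that differed and of Ifit1, which did not pass over all libraries, are shown on the gene's strand, 5′ to 3′, on GRCm38.p6, with matches in capitals and overlapping matches joined.
Oas3, chr5:120777685-120777774, minus strand: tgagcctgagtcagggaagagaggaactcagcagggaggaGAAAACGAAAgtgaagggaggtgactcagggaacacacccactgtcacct
Bst2, chr8:71537547-71537642, minus strand: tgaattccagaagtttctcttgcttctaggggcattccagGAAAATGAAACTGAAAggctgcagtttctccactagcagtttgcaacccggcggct
Isg15, chr4:156200835-156200936, minus strand: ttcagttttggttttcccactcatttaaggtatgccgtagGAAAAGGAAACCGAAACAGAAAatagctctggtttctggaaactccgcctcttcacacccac
Ifit1, chr19:34640745-34640853, plus strand: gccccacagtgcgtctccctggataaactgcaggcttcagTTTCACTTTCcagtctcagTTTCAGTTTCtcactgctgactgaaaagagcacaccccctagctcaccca

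Housekeeping and growth lists differed by small amounts in the other direction. Over all genes tested 34.1% were higher and 30.5% lower in OE_CM. Of the 8296 genes at 16 CPM or more 4248 were higher and 1955 lower (median 0.106), and the counts below are to be read beside both. All 24 cytosolic ribosomal protein genes were higher in OE_CM (median 0.28), and 22 with upper-quartile factors or library size alone (median 0.16 in both). Rps9, of the small subunit, had means of 731 ± 6.7 CPM in OE_CM and 547 ± 1.99 in TGF_VEC_CM, around 663 ± 6.02 in VEC_CM. Of 26 oxidative phosphorylation genes 21 were higher and 1 lower (median 0.17, and 13 higher and 3 lower with library size alone), such as Atp5g1, an ATP synthase subunit gene (131 ± 0.842 against 86.6 ± 1.86 CPM). Of 23 genes of the start of DNA replication 16 were higher and 4 lower (median 0.30, and 14 and 7 with library size alone), among them Mcm5 of the replicative helicase (331 ± 3.25 against 202 ± 2.73 CPM). Of 20 mitosis genes 15 were higher and 2 lower (median 0.21, and 11 and 5 with library size alone), among them Cdc20, which activates the anaphase ubiquitin ligase (150 ± 11.4 against 82.6 ± 2.81 CPM). For Mcm5 and Cdc20 the OE_CM libraries overlapped those of VEC_CM, and TGF_VEC_CM lay below both. With TMM factors from genes of at least 16 CPM the list medians were 0.183 (ribosomal proteins), 0.080 (oxidative phosphorylation), 0.209 (replication) and 0.114 (mitosis).

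Genes tied to mechanical and growth factor signalling follow. All 13 YAP targets, genes tied to cell tension, were lower in OE_CM (median -0.37), including Ankrd1 (19.9 ± 1.72 against 42.3 ± 2.42 CPM) and Axl, a receptor tyrosine kinase gene (log2 -0.35). Of 14 feedback genes of ERK signalling 9 were lower and 2 higher (median -0.29), such as the phosphatase gene Dusp6 (9.11 ± 0.298 against 15.1 ± 0.793 CPM). The insulin and IGF list was mostly alike. Of its 13 genes tested 3 were higher, 4 lower and 6 did not pass (median -0.03), so 53.8% passed against 64.5% of all genes. Intervals of 8 lay inside 1.2-fold, with 25.9% over all genes. Its members named here had large differences. Irs1, an adaptor of the insulin receptor, was at 32.7, 33.8 and 31.7 CPM in OE_CM, at 134, 140 and 139 CPM in TGF_VEC_CM and at 167, 175 and 174 CPM in VEC_CM (log2 -2.08 ± 0.037, edgeR adjusted p = 1.63e-51). Igf1, a secreted growth factor gene, had means of 3.70 ± 0.13 CPM in OE_CM and 20.8 ± 1.52 in TGF_VEC_CM around 10.9 ± 1.33 in VEC_CM. Pdgfrb, the receptor for platelet-derived growth factor B, was higher in OE_CM (138 ± 4.97 against 57.2 ± 1.57 CPM, VEC_CM 102 ± 1.94), whereas Pdgfra was lower (96.0 ± 2.49 against 168 ± 4 CPM, VEC_CM 194 ± 9.50). The paired receptors differed in opposite directions.

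Of 23 chemokines and cytokines 10 were higher and 5 lower in OE_CM (median 0.20), and 4 and 6 with library size alone. Ccl2, the monocyte chemoattractant, had means of 938 ± 17.1 CPM in OE_CM, 784 ± 31.4 in TGF_VEC_CM and 495 ± 15.9 in VEC_CM, and Ccl7, its neighbour in the genome, of 363 ± 12.7, 263 ± 6.55 and 174 ± 2.44 CPM. Lif, an IL-6 family cytokine, was at 32.4, 33.5 and 33.8 CPM in OE_CM, at 27.9, 29.3 and 28.5 CPM in TGF_VEC_CM and at 8.33, 8.77 and 9.19 CPM in VEC_CM. Lif stood above VEC_CM in both, and its direct difference (log2 0.22 ± 0.062, edgeR adjusted p = 0.00187) was lost under the 3 other scalings (adjusted p = 0.074 to 0.17). Il6 was low in all groups and lower in OE_CM than in TGF_VEC_CM (1.72 ± 0.27 against 2.64 ± 0.225 CPM).

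**Figure D4:**
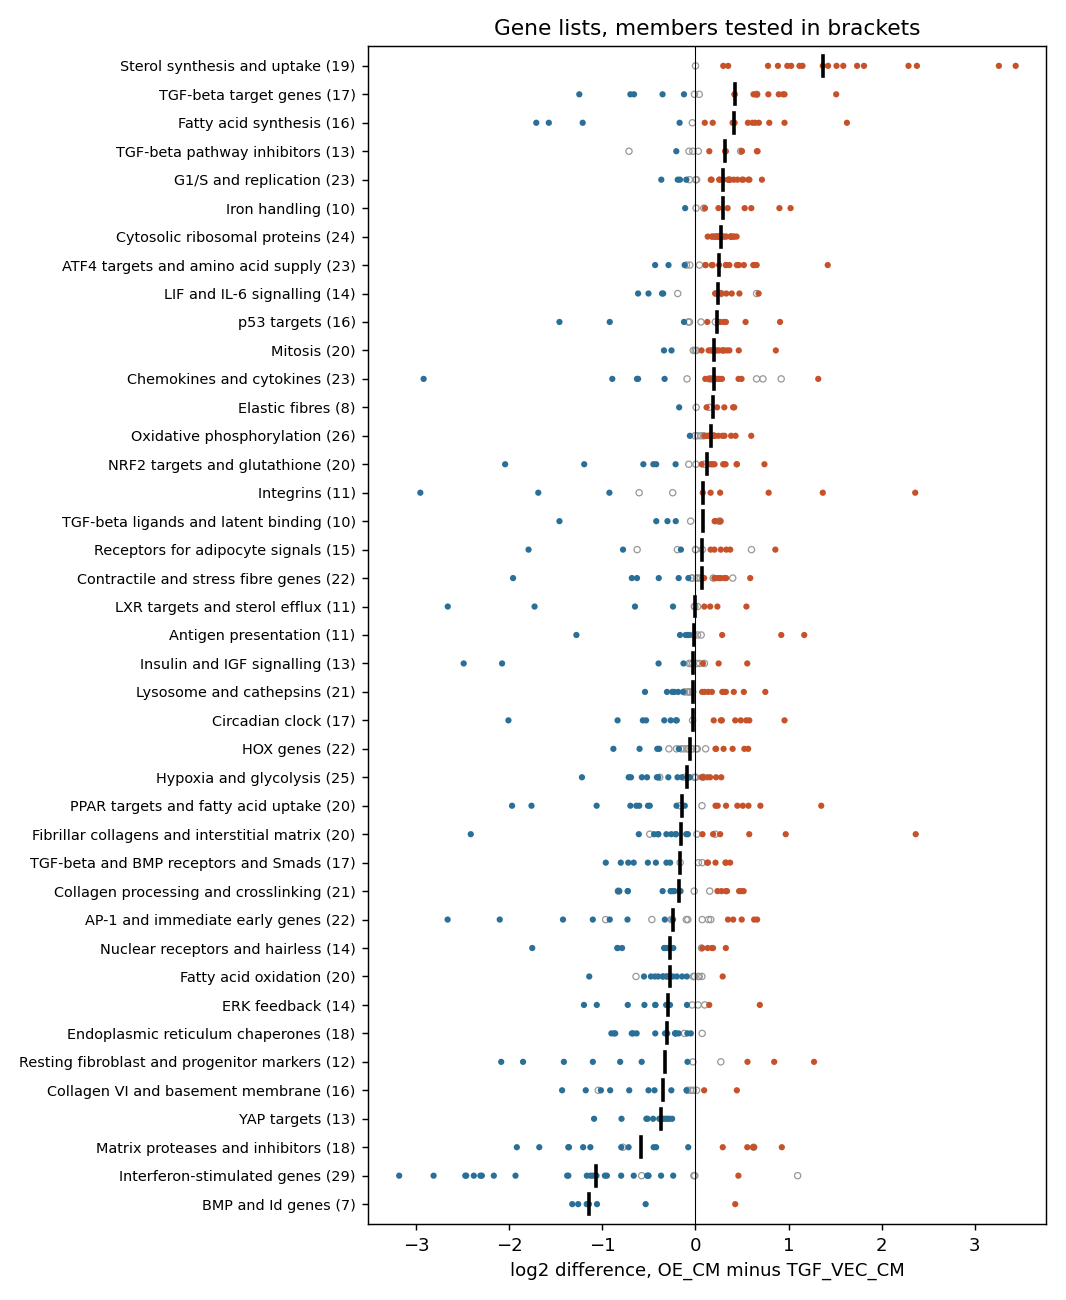
Rows are gene lists with the number of members tested in brackets, and the x axis is the log2 difference, OE_CM minus TGF_VEC_CM. Filled points passed the test (orange higher, blue lower in OE_CM), open points did not, and black bars are medians, from 1.37 for sterol synthesis to -1.14 for the BMP and Id genes in the edgeR fit.

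The largest rises by the naming rule included the sterol genes Insig1, Msmo1, Fdps and Cyp51, and Dpt was described with the matrix. Of the rest, Anxa8, an annexin gene, was at 21.0, 19.8 and 21.8 CPM in OE_CM, 4.50, 4.60 and 4.61 CPM in TGF_VEC_CM and 0.436, 0.519 and 0.493 CPM in VEC_CM, so both states stood above VEC_CM and OE_CM highest (log2 2.19 ± 0.111). Prss46, a serine protease gene, had means of 12.6 ± 0.363 CPM in OE_CM and 3.23 ± 0.557 in TGF_VEC_CM, with at most 0.0273 CPM in a VEC_CM library. Tmco4 and Aven stood near VEC_CM in OE_CM and low in TGF_VEC_CM (log2 2.30 and 1.95).

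The largest falls included genes on opposite sides of VEC_CM. Muc13, a membrane mucin gene, was at 0.734, 0.568 and 0.876 CPM in OE_CM, at 11.2, 12.8 and 14.1 CPM in TGF_VEC_CM and at 3.95, 3.99 and 3.50 CPM in VEC_CM (log2 -4.13 ± 0.165). Prtn3, a neutrophil-type protease gene, had means of 0.802 ± 0.0658, 12.0 ± 0.485 and 2.28 ± 0.449 CPM, and Slc27a6, a fatty acid transporter gene, of 0.493 ± 0.252, 5.68 ± 0.331 and 1.43 ± 0.149 CPM in the same order. Sgk2, Slc25a34 and Rab3a parted in the same way, with direct log2 differences of -2.94, -2.25 and -2.09. By contrast, Csdc2, an RNA-binding protein gene, stood near VEC_CM (2.13 ± 0.335 CPM) in OE_CM at 1.85 ± 0.259 CPM and high in TGF_VEC_CM at 17.4 ± 1.15 CPM, and Ly6d and Ankrd34a showed the same order of groups (log2 -3.41 and -3.25). Rab3il1 had 0.647 ± 0.403 against 5.21 ± 0.817 CPM.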

How the data were processed

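Messenger RNA was sequenced from 12 libraries of mouse fibroblasts, 3 for each of 4 groups. The authors deposited a table of whole-number read counts per gene symbol and a table of FPKM values of the same libraries, which a check showed to be the counts divided by column total and gene length. The submitters' processing notes name GRCm38 (mm10) as the build. No aligner, counting program, strand setting or annotation is given in the sources used here. Overlapping, antisense and near-identical genes can therefore share reads. Gene positions and promoter windows come from RefSeq tables of GRCm38.p6.

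Genes were kept with filterByExpr in edgeR 4.0.16 (R 4.3.3), leaving 14400 of 24619. A single quasi-likelihood fit (robust, TMM factors, a mean per group) took in the 12 libraries. The contrast OE_CM minus TGF_VEC_CM was tested on both sides, with p-values adjusted by Benjamini-Hochberg across the 14400 genes and called at 0.05. Intervals of 95% come from the log2 difference and its SE, |log2| over the root of F. CPM is given as mean ± SD over 3 libraries. At this depth 3 counts stand for at most 0.0939 CPM. Alternatives used other scalings, filters, limma 3.58.1 on log2(FPKM + 1) or log2(FPKM + 0.1), DESeq2 1.42.0, a replicate block and libraries left out, and TMM factors from genes of at least 16 CPM were added after seeing the data. The procedure was tested on simulated data.

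The members, gene lists and tests were chosen with earlier results of these data known. Named genes are the 10 largest rises and 10 largest falls that passed, without overlap and with at least 5 CPM in OE_CM or TGF_VEC_CM, symbols of unnamed gene models skipped, 10 alike genes and 10 on opposite sides of VEC_CM with the largest smaller shift from it, up to 4 members of lowest p in each list, and a fixed set. The fixed set holds genes of fibrosis, TGF-beta signalling, lipid handling and cytokines, and others such as Hr, Itga3, Irs1, Ddit4 and Tnnt2. Other list members named were chosen after their values were seen, and a few genes that the rule names are not reported here.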

Additional observations from a re-analysis of the deposited data

How the results depend on the processing

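The 5 gene counts kept within 1.5 times of their main values except as follows. Genes higher in OE_CM (4907) numbered 3196 with library size alone, 3081 and 3092 with limma on log2(FPKM + 1) and log2(FPKM + 0.1), and 1867 when tested against 1.2-fold. Genes lower (4386) numbered 2686 against 1.2-fold and 1977 at 16 CPM or more. Those at least 2-fold higher (176) numbered 114 with a filter of 1 CPM in 3 libraries, 38 and 95 with the limma fits and 47 at 16 CPM or more. Those at least 2-fold lower (1526) numbered 920 with that filter, 242 with limma on log2(FPKM + 1) and 113 at 16 CPM or more. Genes inside 1.2-fold (3725) numbered 6539 with limma on log2(FPKM + 1). The level and filter alternatives test fewer genes, and the pseudocount shrinks low genes by construction. The limma fits use FPKM values, which are divided by column total, with no TMM factors. They moved the median log2 difference by -0.113 and -0.119, beside -0.12 with library size alone. The part of this scaling in their counts was not tested, nor was the cause for the others.

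Leaving out 1 library gave 4431 to 4729 higher, 4142 to 4352 lower, 165 to 185 at least 2-fold higher, 1498 to 1606 at least 2-fold lower and 3459 to 3585 inside 1.2-fold. Deviations of same-numbered libraries from their group means were close to uncorrelated over all genes tested (r -0.019, -0.0372 and 0.0065). Weakly expressed genes, with much counting noise, weigh as much as others in these values. They therefore do not show whether the numbers pair libraries, and the labels do not say. A replicate block gave 4977, 4431, 174, 1533 and 3800. DESeq2 gave 4671, 4415, 165, 1501 and 3716. None of the 229 genes named by rule passed in opposite directions in the main fit and an alternative, and 17 crossed the threshold under at least 1 alternative. Signs did change where 1 of the fits did not pass. Col1a2 was at log2 0.02 in the main fit, did not pass there, and passed at -0.10 with library size alone. Col6a2 passed at 0.09 in the main fit and was at -0.03 with library size alone, where it did not pass. The median of the leukocyte markers, of which 3 of 12 passed, was -0.20 and turned to 0.12 with the 1 CPM filter and, over libraries left out, ran from -0.423 without OE_CM replicate 1 to 0.213 without OE_CM replicate 3. Of 49 list medians 45 kept their sign under the 4 other scalings. With the 1 CPM filter no endothelial marker was left to give a value.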

Other observations

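Iron, redox and glycolysis genes were described in no comparison above. Over all genes tested 34.1% were higher and 30.5% lower in OE_CM than in TGF_VEC_CM, beside which the counts below are to be read. Of 10 iron genes 7 were higher and 1 lower in OE_CM than in TGF_VEC_CM (median log2 0.30). Tfrc, the transferrin receptor, was at 265, 253 and 247 CPM in OE_CM, at 133, 119 and 125 CPM in TGF_VEC_CM and at 193, 181 and 178 CPM in VEC_CM, so the states lay on opposite sides of VEC_CM (log2 1.02 ± 0.044, edgeR adjusted p = 6.31e-14). Of 20 NRF2 targets and glutathione genes 11 were higher and 6 lower (median 0.12), but 6 and 8 with upper-quartile factors or library size alone (medians 0.011 and 0.003), with Pgd of the pentose phosphate pathway higher (log2 0.74) and the glutathione transferase gene Gsta4 lower (log2 -1.19). Of 25 hypoxia and glycolysis genes 6 were higher and 14 lower (median -0.09, and 2 and 18 with library size alone, median -0.207), and Vegfa, the endothelial growth factor, was alike at 382 ± 15.6 and 380 ± 15.5 CPM, above the 188 ± 6.46 CPM of VEC_CM.

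Of 17 clock genes 8 were higher and 8 lower in OE_CM, with Bmal1 higher (log2 0.58) and Per1 lower (log2 -0.56). Of 16 p53 targets 9 were higher and 3 lower (median 0.23), including the death effector gene Bax (log2 0.54). Of 22 immediate early genes 5 were higher and 8 lower (median -0.25), with Klf6 higher (105 ± 3.72 against 66.5 ± 1.92 CPM) and Fos lower (0.275 ± 0.102 against 1.2 ± 0.196 CPM). Of 12 genes of resting fibroblasts and progenitors 3 were higher and 7 lower (median -0.33), and the intermediate filament gene Vim was higher in OE_CM (3172 ± 13.5 against 1764 ± 34.0 CPM, VEC_CM 3107 ± 44.8).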
